A study of Mus musculus with 10 samples.

Results

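Genes that mark the endothelium of testis vessels, 10 in all, were followed in every sample group. They are Pecam1, Cdh5, Kdr, Flt1, Tek, Tie1, Vwf, Emcn, Eng and Esam, taken by gene symbol from the tables of day 7 and adult values. All 10 were found in both tables, among 20142 genes that either table lists, 17816 at day 7 and 20007 in the adult. RNA sequencing after oligo(dT) enrichment had been performed on mice in which Rnf20, the E3 ubiquitin ligase for lysine 120 of histone H2B, was removed in Sertoli cells. Cre driven by the Amh promoter, which is active in Sertoli cells, deleted the floxed part of Rnf20. At 7 days after birth, 2 samples labelled WT, which the study's methods describe as Rnf20 Flox/Flox, and 2 samples labelled as the RNF20 conditional knockout (KO, Amh-Rnf20-/-) were analysed. The methods describe Sertoli cells isolated with collagenase and trypsin and kept as adherent cultures with several passages, and do not say at which passage RNA was taken. The growth field of the labels gives adult tissue for these samples too, and the day 7 of their titles and of the study's methods was used. The adult samples were whole testis, 3 labelled WT and 3 labelled as the RNF20 conditional knockout, and their age in days, strain and control alleles are not given in the labels. The study's methods give 3 individuals per genotype at day 7, and 2 samples of each are used here. The labels do not tie a sample to 1 animal or to a pool, so the p-values measure the spread between these samples, which may be technical.

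Endothelial cells line the vessels of the testicular interstitium, outside the seminiferous tubules. They hold to each other through VE-cadherin (Cdh5), PECAM-1 (Pecam1) and ESAM (Esam), and respond to VEGF through the receptors encoded by Kdr and Flt1 and to angiopoietins through the receptor encoded by Tek, with which the related receptor of Tie1 acts. Endoglin (Eng) is a co-receptor for ligands of the TGF-beta family, endomucin (Emcn) is a sialomucin of capillaries and veins, and Vwf encodes the von Willebrand factor that endothelial cells store and release in clotting.

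Day 7 samples held 17477268 to 17705347 estimated counts and adult samples 15431912 to 16574144. The KO samples were less alike than the WT samples. In the adult, KO replicate 1 stood apart and differed from the other KO samples by a chi-square of 88.1 and 118 per degree of freedom over genes, where these differed from each other by 21.4 and the WT samples by 13.7 to 17.6. At day 7 the KO samples differed by 34.3 and the WT samples by 2.65, and KO replicate 1 was the farther of the KO samples from WT. The targeted gene was lower in both day 7 KO samples, with 10.2 and 12.6 FPKM (fragments scaled by gene length and by library size) against 16.6 and 16.0 FPKM in WT. The difference did not pass the test (log2 fold change -0.49 ± 0.12 SE, adjusted p = 0.222), and without KO replicate 1 the log2 fold change was -0.35. In adult testis it was at 9.16, 5.76 and 9.85 FPKM in KO and 4.89, 3.32 and 4.09 FPKM in WT (log2 fold change 0.12 ± 0.27, adjusted p = 0.688, and 0.97 with an adjusted p of 0.0168 when scaled by total counts). These values cover the whole gene, of which only a part is deleted. The adult groups differ widely in composition. The summed FPKM of 6 spermatid genes ran from 121979 to 190585 in WT and from 1.58 to 70.8 in KO. TMM scaling, which sets most genes level between samples, put the median log2 fold change of all tested genes at 0.01, whereas scaling by total counts put it at 0.87, so the values below are relative to those medians. Among 15919 adult genes tested, 6503 were higher and 6466 lower in KO with TMM scaling, and 8615 were higher and 4775 lower with total counts.

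In adult testis, 8 of the 10 endothelial genes rose in KO, Flt1 fell, and Vwf did not pass the test. A call here is an adjusted p under 0.05 from edgeR's quasi-likelihood test, adjusted over all tested genes. Of all genes tested, 40.9% were called higher and 40.6% lower, which is the background for these counts. All 10 passed the filter on low values, but Pecam1, Cdh5, Kdr, Tek and Tie1 passed it through the KO samples alone, so a difference in them was built into their being tested. Emcn, Eng, Esam, Flt1 and Vwf passed in both groups. The estimated counts behind the adult values ran from 7 for Pecam1 in WT replicate 3 to 160 for Vwf in the same sample, and in KO from 77 for Flt1 to 899 for Cdh5. In whole tissue, a larger share of a cell type, as with fewer germ cells, and more RNA per cell cannot be told apart. The same holds for a smaller share and less RNA per cell where a gene fell.

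**Figure D1:**
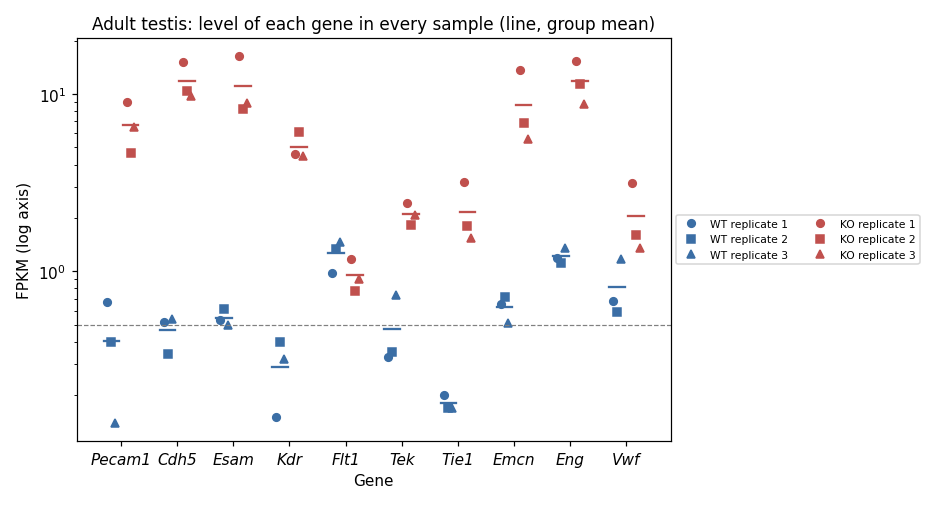
FPKM of the 10 endothelial genes in each adult testis sample, on a log axis, with WT in blue, KO in red, a marker shape per replicate, a short line at the group mean and a dashed line at 0.5 FPKM, the minimum used for testing. All 3 KO samples lie above all 3 WT samples for every gene but Flt1, where the groups overlap on this scale. On TMM-scaled counts, 8 of the 10 genes had all KO samples above all WT samples and 1 had all below. Of all 15919 genes tested, 6752 had all KO samples above and 6861 all below on that scale.

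The junction genes Cdh5 and Esam had the highest fitted fold changes of the 10. Cdh5 (Entrez gene 12562, chr8:104101613-104144504 on GRCm38.p6), whose product closes the adherens junctions of endothelium, was at 0.52, 0.34 and 0.54 FPKM in WT and 15.2, 10.4 and 9.75 FPKM in KO. The groups did not overlap, and the means were 0.467 ± 0.110 and 11.8 ± 2.94 (SD, n = 3 each). The fitted rise was 14-fold (log2 fold change 3.81 ± 0.30 SE, adjusted p = 8.5e-05). Esam (69524, chr9:37528089-37538319), an adhesion molecule of endothelial tight junctions, stood at 0.53, 0.61 and 0.50 FPKM in WT and 16.4, 8.28 and 8.86 FPKM in KO. KO replicate 1 was nearly double the other KO samples, and all 3 were far above WT (log2 fold change 3.50 ± 0.40, adjusted p = 0.000332). Pecam1 (18613, chr11:106654213-106715281), an adhesion molecule of endothelium that platelets and leukocytes also carry, was at 0.67, 0.40 and 0.14 FPKM in WT and 9.0, 4.66 and 6.49 FPKM in KO. Its WT samples spread more widely, on 34, 20 and 7 counts, and its log2 fold change of 3.19 had an SE of 0.57 (adjusted p = 0.00227).

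The paired VEGF receptors moved apart. Kdr (16542, chr5:75932827-75979072), the main signalling receptor for VEGF-A, rose from 0.15, 0.40 and 0.32 FPKM in WT to 4.57, 6.09 and 4.49 FPKM in KO, with no overlap (log2 fold change 3.27 ± 0.39, adjusted p = 0.000407). Flt1 (14254, chr5:147561604-147726438), which binds VEGF-A tightly and also gives a soluble decoy form, was at 0.98, 1.34 and 1.47 FPKM in WT and 1.17, 0.77 and 0.91 FPKM in KO. On FPKM the groups overlapped, since KO replicate 1 was above WT replicate 1, and the means were 1.26 ± 0.254 and 0.950 ± 0.203 (SD, n = 3 each). With TMM scaling all KO samples were below all WT samples and Flt1 fell by 1.26 on the log2 scale (SE 0.28, adjusted p = 0.00613). With total counts its value was -0.41 and did not pass (adjusted p = 0.191), so its fall depends on the scaling, while its distance below the median of all genes does not. Within each sample the ratio of Kdr to Flt1 was 0.153, 0.299 and 0.218 in WT and 3.91, 7.91 and 4.93 in KO, and this ratio does not depend on library scaling. It was chosen after its values were seen.

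The bases just before the start site of Flt1 are shown beside those of Kdr, its paired receptor that rose, and of Eng, a member with a similar WT level that rose. RefSeq promoter windows on GRCm38.p6 matched 6 of the 10 genes. Each line gives the 120 bases before the start that this table uses, 1 per gene, 5′ to 3′ on the gene's strand, with capitals for any of 3 short motifs on either strand: TGACGTCA, the full cyclic AMP response element, AGGAAG, which holds the core of an ETS factor site, and TATAAA, the box that positions the start of transcription in some promoters. The motifs were chosen with the sequences and the values in view.
Flt1, chr5:147726012-147726131, minus strand: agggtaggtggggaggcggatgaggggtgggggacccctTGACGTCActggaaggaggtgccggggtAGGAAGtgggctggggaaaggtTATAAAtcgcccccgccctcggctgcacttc
Kdr, chr5:75978456-75978575, minus strand: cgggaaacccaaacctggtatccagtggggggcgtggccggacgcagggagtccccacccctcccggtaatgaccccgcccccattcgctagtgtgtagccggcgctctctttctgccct
Eng, chr2:32646475-32646594, plus strand: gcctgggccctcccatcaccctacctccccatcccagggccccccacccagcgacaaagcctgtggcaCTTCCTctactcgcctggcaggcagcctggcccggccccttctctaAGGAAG
The Flt1 window holds all 3 motifs, with the response element starting 81 bases, the ETS core 53 bases and the box 31 bases before the start. The Kdr window holds none, and the Eng window holds the ETS core on each strand (CTTCCT is its reverse complement). Of the matched windows not shown, that of Emcn holds the ETS core starting 93 bases before the start, and those of Tek and Tie1 hold none of the motifs. Emcn, Tek and Tie1 all rose, and a relation between the motifs and the direction of change was not tested. Of 32851 promoter windows of this length, 1.24% hold TGACGTCA, 16.3% hold AGGAAG and 6.34% hold TATAAA on either strand. The starts used for Flt1 and Kdr lie inside the gene spans given above, so RefSeq has a transcript of each that begins farther upstream, and its start is not the one shown. None of these 3 motifs overlapped another in the windows shown. A match of letters is a description of the sequence and does not show that a factor binds there.

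Tek and Tie1, the receptors of the angiopoietin system, both rose, by different amounts. Tek (21687, chr4:94739086-94874976), which binds the angiopoietins, was at 0.33, 0.35 and 0.73 FPKM in WT and 2.43, 1.83 and 2.07 FPKM in KO. WT replicate 3 was about double the other WT samples, and the groups did not overlap (log2 fold change 1.33 ± 0.38, adjusted p = 0.0163). This call is not firm: without WT replicate 1 the adjusted p was 0.0541 and without WT replicate 2 it was 0.0623. Tie1 (21846, chr4:118471191-118489849), an orphan receptor that pairs with the product of Tek, was at 0.20, 0.17 and 0.17 FPKM in WT and 3.18, 1.79 and 1.55 FPKM in KO (log2 fold change 2.75 ± 0.41, adjusted p = 0.00104).

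Emcn and Eng rose as well. Emcn (59308, chr3:137341062-137431069) was at 0.65, 0.72 and 0.51 FPKM in WT, on 10 to 14 counts a sample, and 13.7, 6.87 and 5.59 FPKM in KO (log2 fold change 2.95 ± 0.48, adjusted p = 0.0015). KO replicate 1 was again the highest, and the lowest KO sample was above every WT sample. Eng (13805, chr2:32646595-32682669) was at 1.19, 1.11 and 1.35 FPKM in WT and 15.3, 11.3 and 8.78 FPKM in KO (log2 fold change 2.43 ± 0.27, adjusted p = 0.000322).

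Vwf (22371, chr6:125552948-125686679) was at 0.68, 0.59 and 1.18 FPKM in WT and 3.16, 1.61 and 1.36 FPKM in KO. All KO samples were above all WT samples on FPKM, by a small margin between KO replicate 3 and WT replicate 3, but with TMM scaling the groups overlapped and the difference did not pass (log2 fold change 0.52 ± 0.44, adjusted p = 0.303). With total counts it passed, at 1.35 ± 0.43 (adjusted p = 0.0238), and without KO replicate 1 the TMM value was 0.15.

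**Figure D2:**
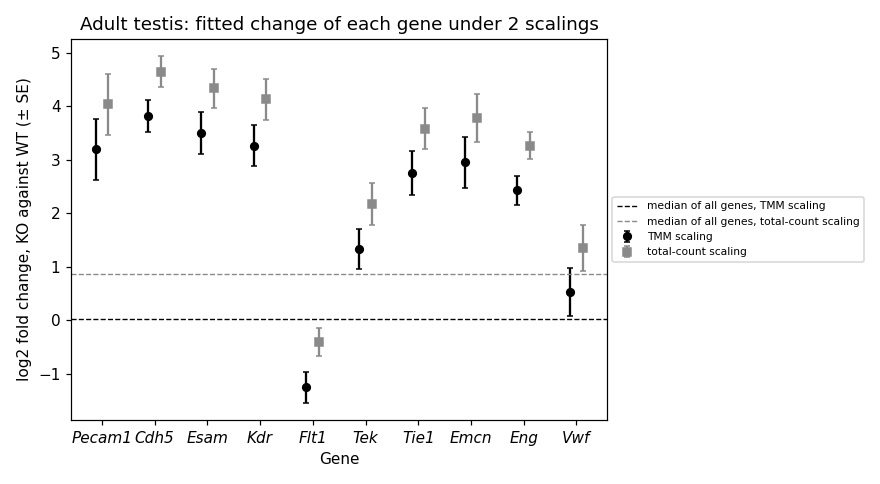
Fitted log2 fold change of each endothelial gene in adult testis, KO against WT, with its SE, under TMM scaling (black circles) and total-count scaling (grey squares). Dashed lines mark the median of all tested genes under each, 0.01 and 0.87. Flt1 lies below the matching line and the other 9 genes above it under both scalings, with Vwf and Tek nearest to it.

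Leaving out KO replicate 1, the sample that stands apart, kept the number of calls at 8 higher and 1 lower. The fitted log2 fold changes of the 8 genes that rose were then between 1.30 for Tek and 3.67 for Cdh5, and that of Flt1 was -1.37. By the stricter thresholds of the study, an absolute log2 fold change over 1 with a false discovery rate under 0.001, Cdh5, Kdr, Eng and Esam were higher, 4 of 10, where 23.0% of all genes tested passed in that direction. This count depends on the samples and the model. Without KO replicate 1, Pecam1, Tie1 and Emcn also passed as higher and Flt1 as lower, where 5270 of 15919 genes passed as higher and 5031 as lower. With a replicate block, 0 genes passed these thresholds.

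The order of the 10 genes also changed between the groups. In WT testis Flt1 (mean 1.26 FPKM) and Eng (1.22) were at the top, followed by Vwf (0.817), Emcn (0.627) and Esam (0.547), while Tek, Cdh5 and Pecam1 lay between 0.403 and 0.470 and Kdr (0.290) and Tie1 (0.180) at the bottom. Each gene overlapped with the next in this order, so no step of it exceeds the spread between WT samples. In KO testis Eng (11.8), Cdh5 (11.8) and Esam (11.2) led, then Emcn (8.71), Pecam1 (6.72) and Kdr (5.05), again with overlap at each step. Below a gap came Tie1, Tek and Vwf at 2.04 to 2.17 FPKM, the lowest Kdr sample (4.49) being above the highest of Tie1 (3.18). Flt1 was last at 0.950, its highest KO sample (1.17) below the lowest KO sample of Vwf (1.36).

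As shares of the summed FPKM of the 10 genes, which no library scaling can move, Flt1 held 16.6%, 22.2% and 21.3% in WT and 1.39%, 1.43% and 1.83% in KO. The share of Vwf was 11.5%, 9.78% and 17.1% in WT and 3.76%, 3.0% and 2.73% in KO. Cdh5 went the other way, from 8.81%, 5.64% and 7.81% to 18%, 19.4% and 19.6%, and Eng held much the same share, on average 19.4% in WT and 19.0% in KO. On the log2 scale, each gene was also set against the mean of the other 9 in the same sample. Cdh5, Emcn, Eng and Esam were higher and Flt1, Tek and Vwf lower in every KO sample than in every WT sample, and Pecam1, Kdr and Tie1 overlapped. Flt1 was 1.21 ± 0.27 above the mean of the others in WT and 2.38 ± 0.20 below it in KO, a difference of -3.58 (SD, n = 3 each), and Vwf moved by -1.85 and Tek by -0.93. For these 7 genes the two-sided exact permutation test gave p = 0.1, the smallest that 3 samples against 3 allow, so it cannot pass 0.05.

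**Figure D3:**
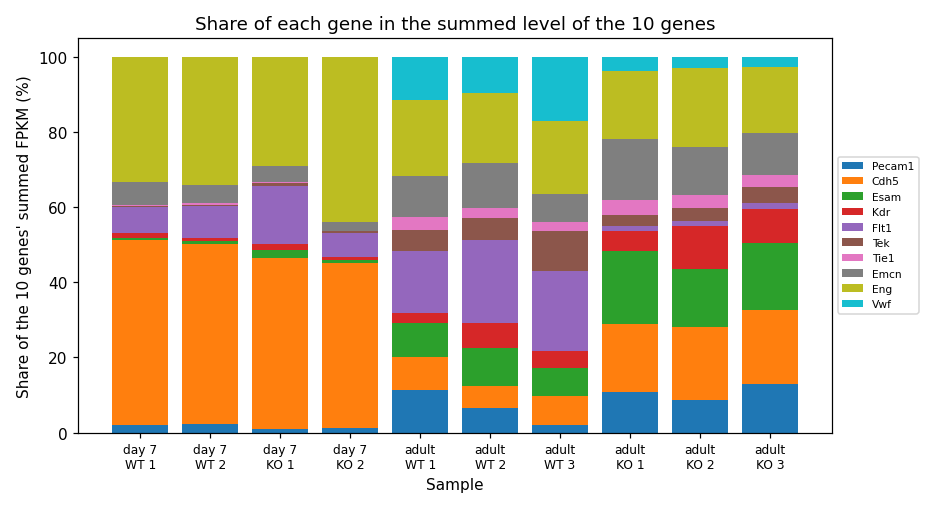
Share of each endothelial gene in the summed FPKM of the 10 genes, in percent, as stacked bars for the 4 day 7 samples and the 6 adult samples. Cdh5 and Eng fill most of the day 7 bars, Flt1 and Vwf take larger shares in adult WT than in adult KO, and the 3 adult KO bars are divided alike.

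Further endothelial genes behaved like the majority of the 10 in adult testis. Of 20 other endothelial genes, 16 rose, 1 fell (Sox17) and 3 did not pass, where 40.9% of all genes tested were called higher and 40.6% lower. Their median log2 fold change was 2.10 where that of all genes was 0.01, and 13 of the 20 were tested only because of their KO levels. Plvap, of the diaphragms of fenestrated endothelium, had the largest rise (log2 fold change 4.08 ± 0.49, adjusted p = 0.000404), from 0.17 to 0.31 FPKM in WT to 4.59 to 10.8 FPKM in KO. Cd34, which fibroblasts carry as well as endothelium, was the most abundant, from 2.99 to 3.75 FPKM in WT to 66.2 to 132 FPKM in KO, and the tight junction gene Cldn5 went from 2.53 to 2.97 FPKM to 21.0 to 42.0 FPKM. Egfl7, an endothelial secreted factor, did not pass with TMM scaling (log2 fold change 0.54, adjusted p = 0.175) and did with total counts (1.38) or without KO replicate 3 (0.83). Sox17, a transcription factor of arterial endothelium that is also active elsewhere, was at 5.79, 4.14 and 6.34 FPKM in WT and 3.55, 2.74 and 2.55 FPKM in KO (log2 fold change -1.51 ± 0.25, adjusted p = 0.00158).

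By vessel type, 4 of 8 arterial genes rose, 1 fell, 2 did not pass and 1 was too low to test. Of the 7 tested 4 thus rose, where 40.9% of all genes tested did, and a difference from that share was not tested. Among the 4 was Gja4, a gap junction gene of arteries, with a log2 fold change of 2.94. The 1 that fell, Hey1, a Notch target, did so with TMM scaling (-0.83 ± 0.30, adjusted p = 0.0382), was at 0.02 with total counts, and lost its call without WT replicate 1 or 3 or KO replicate 1 or 2 (adjusted p = 0.0855 to 0.126). All 3 tested venous genes of 5 rose, among them Ephb4, the venous ephrin receptor (4.20 ± 0.16), and Nr2f2, a regulator of venous identity (3.87 ± 0.23). Of 5 lymphatic genes, Pdpn and Lyve1 were among 3 that rose (log2 fold changes 4.88 and 3.28), while Prox1 (-1.71 ± 0.37) and Flt4 (-1.0 ± 0.32), the lymphatic regulator and the VEGF-C receptor, fell. With total counts neither of these passed the test, and Flt4 lost its call without WT replicate 2 or 3 or KO replicate 2 or 3 (adjusted p = 0.056 to 0.103). Pdpn is also made by cells outside lymphatics. Of the tested genes, 5 of 7 arterial (Gja4, Dll4, Bmx, Sema3g and Unc5b), 2 of 3 venous (Ephb4 and Aplnr) and 3 of 5 lymphatic ones (Lyve1, Mmrn1 and Pdpn) passed the filter through the KO samples alone, so a higher KO level in them was built into their being tested. Prox1, at 0.95, 0.43 and 0.59 FPKM in KO, passed it through the WT samples alone, so its lower KO level was likewise built in.

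Of 16 listed ligands and co-receptors of the same pathways, 13 were tested in adult testis, 10 rose and 3 did not pass. Their median log2 fold change was 2.86, where that of all genes was 0.01. Of all genes tested, 40.9% were called higher, and a difference from that share was not tested. Vegfd, which encodes a ligand of the VEGF family, went from 0.84, 0.82 and 1.74 FPKM in WT to 26.4, 34.6 and 24.3 FPKM in KO (3.74 ± 0.33, adjusted p = 0.000122). Vegfb, a ligand of the receptor Flt1 encodes, went from 4.5 to 7.09 FPKM to 30.5 to 67.3 FPKM (2.29 ± 0.40), and Vegfa from 1.03 to 1.70 FPKM to 6.52 to 7.94 FPKM (1.60 ± 0.21). Angpt4, a ligand of the receptor that Tek encodes, had the largest rise of the list (4.93 ± 0.73), and Nrp1, a co-receptor for VEGF, rose by 4.04 ± 0.35. Both of these, with Vegfc, Angpt1, Acvrl1 and F8, were tested only because of their KO levels, 6 of the 13.

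Markers of most other interstitial cells listed rose with the endothelial genes. All 8 mural cell genes, which mark the pericytes and muscle cells around vessels, rose (median log2 fold change 2.66), as did all 6 macrophage and leukocyte genes (3.62), all 6 Leydig cell genes (3.92) and all 6 stromal fibroblast genes (4.4), beside a median of 2.85 for the 10 endothelial genes. Of these, 5 of the 8 mural genes (Pdgfrb, Cspg4, Notch3, Kcnj8 and Abcc9), 1 of the 6 macrophage and leukocyte genes and no Leydig or stromal gene passed the filter through KO alone. Over all genes tested, the share called higher was 40.9%. In summed FPKM, the endothelial genes ran from 5.90 to 6.91 in WT and from 49.9 to 84.0 in KO, and the mural genes from 4.32 to 4.97 and from 44.4 to 82.7. The macrophage genes ran from 40.9 to 48.1 and from 834 to 1116, and the stromal genes from 40.5 to 53.4 and from 1303 to 3390. As means of log2(FPKM + 0.1), the distance of the endothelial from the mural genes changed by -0.31 between the groups, and their distance from the macrophage, Leydig and stromal genes by -1.61, -1.80 and -2.09. Of 5 red cell genes, which come with blood in the vessels, the 4 globin genes were called higher and Alas2, of haem synthesis, fell (log2 fold change -1.72 ± 0.30, adjusted p = 0.00214). The call of Hba-a2 is uncertain, since it passed the filter through KO alone, can share reads with its near copy Hba-a1 and was not called by DESeq2 (adjusted p = 0.0673). The sum of the red cell genes, carried by the globins, ran from 89.0 to 128 FPKM in WT and from 673 to 3176 in KO, highest in KO replicate 1, which was also the highest KO sample for 9 of the 10 endothelial genes, Kdr being the exception. Of 5 platelet genes, 2 were tested, of which Pf4 rose (3.23 ± 0.20) and Gp1bb fell (-2.90 ± 0.37). None of these lists had a gene at 0 in every sample, and their part in the change of the endothelial genes was not tested.

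**Figure D4:**
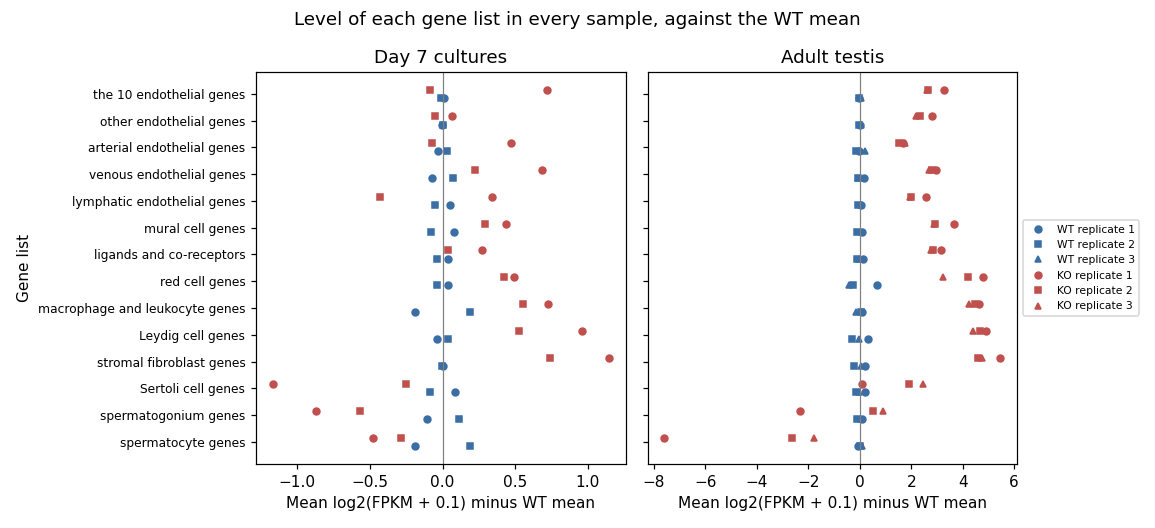
Mean log2(FPKM + 0.1) of each gene list in every sample, minus the mean of the WT samples, at day 7 (left) and in adult testis (right), with WT in blue and KO in red and a marker shape per replicate. In the adult the endothelial and mural lists lie together near 3, the macrophage, Leydig and stromal lists lie higher, and the spermatocyte list lies below 0. At day 7 KO replicate 1 lies apart from KO replicate 2 in most lists.

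At day 7, in the Sertoli cell cultures, none of the endothelial genes was called. Across all 12880 genes tested, 0 passed (0% of genes, edgeR), where 15.5% had an unadjusted p under 0.05 and DESeq2 called 581. Of the 10 genes, 7 were tested and 1 of them, Eng, had an unadjusted p under 0.05. Tek, Tie1 and Vwf were below the filter, and Esam was tested through its KO samples alone. The 8 Sertoli cell genes summed to 815 to 1439 FPKM, most of it from Clu (655 to 961 FPKM). Gata4, Wt1 and Sox9 were at 10.2 FPKM or more in every sample, whereas Amh was at 3.33 to 6.41, Fshr at 0.36 to 2.16 and Rhox5 at 0.22 to 0.64 FPKM, and Cldn11 was at 14 FPKM in KO replicate 1 against 150 to 229 FPKM in the others. In the same samples 6 stromal fibroblast genes summed to 2152 to 3920 FPKM. Some markers that define endothelium were near 0: Vwf was at 0.02 to 0.03 FPKM on 3 or 4 counts, Tie1 at 0.08 to 0.30, Cldn5 at 0.15 to 0.40 and Tek at 0.19 to 0.63 FPKM. In the same samples Cdh5, Eng, Flt1 and Emcn were between 1.78 and 43.0 FPKM. Of the 20 other endothelial genes 10 reached the filter, among them Robo4 at 2.86 to 12 FPKM, Ecscr at 6.11 to 17.5, Egfl7 at 3.33 to 4.19 and Sox18 at 1.98 to 2.63 FPKM, and 10 did not. Without KO replicate 2, edgeR called Cdh5, Eng, Flt1, Kdr and Esam higher, and without KO replicate 1 it called Eng, each time with the lone KO sample assumed to vary like the WT pair.

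Cdh5 was at 30.2 and 28.3 FPKM in WT and 43.0 and 32.1 FPKM in KO, so both KO samples were above both WT samples (log2 fold change 0.40 ± 0.16, adjusted p = 0.35). Eng was at 20.5 and 20.2 FPKM in WT and 27.4 and 32.3 FPKM in KO, also without overlap. Its log2 fold change was 0.59 ± 0.11 with an adjusted p of 0.159 in edgeR, and DESeq2 called it (adjusted p = 0.00629). Over its alternatives that kept all samples the adjusted p of Eng was between 0.00629 and 0.303. Of all genes tested, 24.8% had both KO samples above both WT samples and 26.1% had both below, beside 3 of the 7 endothelial genes above (Cdh5, Eng and Esam) and 1 below (Pecam1).

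Pecam1 was at 1.25 and 1.41 FPKM in WT and 0.88 and 0.97 FPKM in KO (log2 fold change -0.45 ± 0.22, adjusted p = 0.41). Emcn was at 3.66 and 2.81 FPKM in WT and 4.09 and 1.78 FPKM in KO, with the KO samples on either side of WT (-0.11 ± 0.46, adjusted p = 0.933). Tie1, below the filter, was at 0.21 and 0.30 FPKM in WT and 0.29 and 0.08 FPKM in KO. Both KO samples were below both WT samples for Pecam1, and the groups overlapped for Emcn and Tie1. None of the 3 passed the test, fitted without a filter for Tie1 (-0.44 ± 0.70, adjusted p = 0.801).

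For the VEGF receptors, 1 KO sample made the difference, while for Esam both KO samples were above both WT samples. Flt1 was at 4.29 and 4.95 FPKM in WT, 4.79 FPKM in KO replicate 2 and 14.5 FPKM in KO replicate 1. Kdr was at 0.69 and 0.62 FPKM in WT, 0.65 FPKM in KO replicate 2 and 1.60 FPKM in KO replicate 1, and Esam at 0.43 and 0.36, 0.57 and 2.02 FPKM. KO replicate 1 was thus the high sample for all 3, and also for Tek (0.63 FPKM against 0.19 to 0.22 in the others, log2 fold change 1.16 ± 0.62 without a filter). The fitted log2 fold changes were 1.08 ± 0.54 for Flt1, 0.83 ± 0.48 for Kdr and 1.74 ± 0.71 for Esam, and without KO replicate 1 they were 0.07, 0.04 and 0.56. In the same sample the Sertoli genes summed to 815 FPKM against 1096 in KO replicate 2 and 1320 to 1439 in WT, and the stromal genes to 3920 against 3306 and 2152 to 2236 FPKM. The part of this in the endothelial values was not tested.

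**Figure D5:**
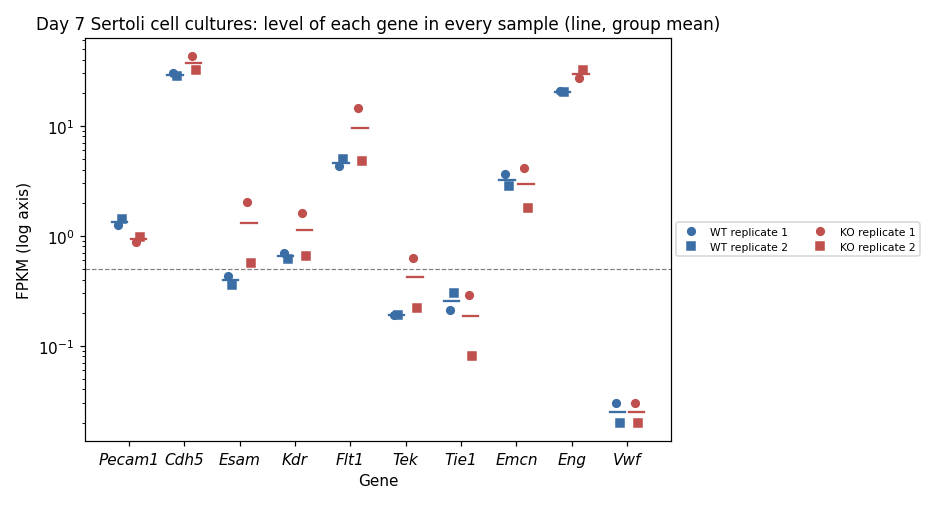
FPKM of the 10 endothelial genes in each day 7 Sertoli cell culture, on a log axis, with WT in blue, KO in red, a short line at the group mean and a dashed line at 0.5 FPKM. KO replicate 1 stands above the other 3 samples for Esam, Kdr, Flt1 and Tek, and Tek, Tie1 and Vwf lie mostly below the dashed line.

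Among the further genes at day 7, Cd34 was at 3.25 and 3.30 FPKM in WT and 43.6 and 15.6 FPKM in KO (log2 fold change 3.20 ± 0.56, adjusted p = 0.158), and Ecscr, an endothelial surface gene, at 6.24 and 6.11 against 17.5 and 14.5 FPKM (1.42 ± 0.18, adjusted p = 0.132). S1pr1, a sphingosine phosphate receptor, was at 10.2 to 11 FPKM in all 4 samples. Of the ligands, Vegfa was the most abundant, at 109 and 110 FPKM in WT and 61.8 and 64.7 FPKM in KO (-0.73 ± 0.07, adjusted p = 0.119). Vegfd, named after its values were seen, was at 3.88 and 3.29 FPKM in WT and 30.7 and 28.3 FPKM in KO (2.97 ± 0.13, adjusted p = 0.0961). The groups did not overlap for either ligand, and DESeq2 called both of them as well as Cd34 and Ecscr. Vegfb (54.6 to 68.8 FPKM) and Nrp2 (18.5 to 23.2 FPKM) varied less. By edgeR, 0 of the 10 tested other endothelial genes and 0 of the 11 tested ligands and co-receptors were called. An unadjusted p under 0.05 was found for 4 and 3 of them, where 15.5% of all genes tested had one. Of these 10 other endothelial genes, 3 had both KO samples above both WT samples and 4 had both below. Over all genes tested these shares were 24.8% and 26.1%, and a difference from them was not tested. Among the 3, Plvap passed the filter through KO alone and its groups overlapped on FPKM. Among the 4, Erg passed the filter through WT alone. The 4 genes with an unadjusted p under 0.05 were Cd34 and Ecscr, which were higher in KO, and Erg (-0.72 ± 0.26) and Ptprb (-0.65 ± 0.21), which were lower. Erg was at 0.70 FPKM in both WT samples and at 0.38 and 0.42 FPKM in KO, so a lower KO level in it was built into its being tested. Robo4, an endothelial guidance receptor, was at 11.3 and 12 FPKM in WT and 2.86 and 8.98 FPKM in KO (-1.06 ± 0.53, adjusted p = 0.414). Erg, Ptprb and Robo4 were named after their values were seen.

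The make-up of the 10 genes differed between the cultures and the testis. The tables were made separately, so only ratios within a sample are set side by side and none was tested. At day 7 Cdh5 held 43.7% to 49.1% and Eng 29.0% to 43.9% of the summed FPKM of the 10, Pecam1 0.932% to 2.38% and Vwf 0.0272% to 0.0488%. In adult testis Pecam1 held 2.03% to 13.0% and Vwf 2.73% to 17.1%. Cdh5 was 20.1 to 48.8 times as high as Pecam1 in the cultures and 0.776 to 3.86 times in testis. Kdr was 0.111 to 0.161 times as high as Flt1 in all 4 cultures, with WT and KO overlapping, where the adult groups were far apart.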

How the data were processed

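Reads had been mapped by the authors to GRCm38.p6 with HISAT and to reference genes with Bowtie2, and quantified with RSEM. The deposited tables hold estimated counts (not normalized), FPKM (scaled for the length of a gene and the size of a library) and TPM. TPM entered no test, and 20 empty columns of the adult table were not used. Between 10.7% and 13.2% of counts in a sample were not whole, and counts were rounded. Genes reaching 0.5 FPKM in 2 day 7 or 3 adult samples were tested (12880 and 15919) with edgeR 4.0.16 (quasi-likelihood, TMM, Benjamini-Hochberg), after a test on simulated data. Levels on a log scale used log2(FPKM + 0.1). The study's methods set thresholds on fold change and false discovery rate for sequencing, without naming the test behind them, and name Student's test for comparisons of 2 groups in general.

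The endothelial genes, the other lists and the tests were chosen with earlier results of these data known. Named genes are Rnf20, the 10 members and, per list, the 3 with the highest mean FPKM and the largest called rise and fall, and not all are printed. Named outside this rule, with values seen, were Vegfa and the genes listed as tested through KO alone in the adult and, at day 7, Vegfd, Robo4, Erg, Ptprb, Plvap, Egfl7, Sox18, Cldn5 and 5 Sertoli cell genes. Alternatives used DESeq2 1.42.0, limma 3.58.1, other scalings, filters, a replicate block and samples left out. Coordinates and promoter windows are from RefSeq on GRCm38.p6. R 4.3.3 and Python 3.11.15 were used.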

Additional observations from a re-analysis of the deposited data

Results flagged for a closer look

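Pecam1 moved in opposite directions at the 2 ages: both day 7 KO samples were below both WT samples (log2 fold change -0.45), and all 3 adult KO samples were above all 3 WT samples (3.19). The difference between the ages was not tested, since the tables were made separately and hold cultured cells in one and whole testis in the other. The day 7 value did not itself pass the test.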

How the results depend on the processing

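In adult testis, 9 of the 10 endothelial genes were called under every scaling, filter and tool tried with all samples, replicate block included, and 8 to 9 with 1 sample left out. Tek was the call lost without WT replicate 1 or 2. Which genes these are changed in 1 respect: with total counts and with limma on FPKM, Flt1 was lost and Vwf gained. The study's thresholds left 4 of the genes, and 7432 of all genes in place of 12969 (12018 to 13757 with 1 sample left out). By those thresholds, 2695 to 10301 of all genes passed with 1 sample left out, and 0 with the replicate block. At day 7, 0 genes of the list were called, 1 by DESeq2 (Eng) and 0 to 5 with 1 sample left out, and of all genes 0, 581 by DESeq2 and 0 to 5136. The higher counts came without KO replicate 1 (2757 genes, 1 of the list) and without KO replicate 2 (5136 genes, 5 of the list), where the remaining KO sample is assumed to vary like the WT pair. Directions turned for Rnf20 in the adult with median-ratio scaling (-0.075) and DESeq2 (-0.075) and for Hey1 with total counts (0.022). With 1 sample left out at day 7, the log2 fold change of Emcn ran from -0.83 to 0.37, of S1pr1 from -0.070 to 0.042 and of Nrp2 from -0.10 to 0.22. Set against the median of the other 9 genes, Cdh5 (-0.24) and Eng (-0.037) at day 7 and Tie1 in the adult (-0.35) turned from slightly above to below. Against the mean of the other 9, as in the report, Tie1 turned to -0.52 with a pseudocount of 1, and with 1 sample left out the day 7 values ran from -0.19 to 0.24 for Cdh5, from -0.33 to 0.83 for Eng and from -0.74 to 0.028 for Vwf. Samples of the same number did not deviate together over genes (correlations 0.03 at day 7 and 0.01, 0.01 and 0.03 in the adult). With 2 or 3 samples a group, this cannot exclude that the numbers pair samples. With the replicate block 12209 genes were called in the adult and 0 at day 7. Counts of 7 to 53 per WT sample limit the precision of Pecam1, Cdh5, Kdr, Tek, Tie1, Emcn and Esam in the adult, and 2 samples a group limit every day 7 comparison.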
